A study of Mus musculus with 4 samples.

Results

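The 8 T-box genes *Tbx1*, *Tbx2*, *Tbx3*, *Tbx4*, *Tbx5*, *Tbx15*, *Tbx18* and *Tbx20* were examined in the developing mouse larynx with and without Sonic hedgehog. They were picked by symbol from gene tables that list 46983 genes, and they are 8 of the 17 T-box genes found there. Each is a single row in every table, and all 8 reached a mean of at least 1 TPM (a share of the transcripts of a library, corrected for their length and scaled to the same sum in each library), the level that 16972 genes reached and that was required for testing. RNA-seq had been run on larynx tissue, named vocal fold tissue in the study's methods, of E10.5 embryos with 32 to 35 somites. There are 2 *Shh-/-* libraries, called pools 1 and 2 after their labels, and 2 WT libraries, pools 4 and 6, and each was made from 3 larynxes of different embryos. The mutant embryos carry the null allele *Shhtm1amc*, which was kept on a Swiss Webster background, and Swiss Webster is also the wild-type stock of the study. The labels of the mutant libraries write the genotype as *Shh+/-*, whereas the design text of the series and the study's methods give it as *Shh-/-*, the name used here. Litters and sexes are not given, so the p-values below measure the spread between these pools only.

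T-box factors bind DNA through a shared domain, the T-box, and act as activators or as repressors depending on the member and its partners. *Tbx2* and *Tbx3* encode mainly repressors, *Tbx4* and *Tbx5* encode activators needed in the mesenchyme of the early lung, trachea and limb buds, and *Tbx1* is needed for the pharyngeal arches and pouches. *Tbx15* and *Tbx18* act in mesenchyme of the skeleton, skin, epicardium and urogenital tract, and *Tbx20* is best known from the heart.

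Aligned bases were worked out from the listed coverage and FPKM of single-transcript genes. They came to 1.37 and 3.13 Gb for *Shh-/-* pools 1 and 2. For WT pools 4 and 6 they came to 2.85 and 2.97 Gb, so *Shh-/-* pool 1 was the shallowest by this estimate. Between 16432 and 17117 genes per library reached 1 TPM. The targeted gene *Shh* was listed at 10.4 and 10.8 TPM in *Shh-/-* and at 23.7 and 42.1 TPM in WT (log2 difference -1.49, SE 0.28, limma adjusted p = 0.0895), and *Ptch1*, the HH receptor and target gene, at 12.9 and 13.8 against 57.8 and 55.1 TPM (-2.0, SE 0.12, adjusted p = 0.0319). Neither gene's pools overlapped between genotypes. In all, 123 of the 16972 tested genes passed an adjusted p of 0.05, 95 of them higher and 28 lower in *Shh-/-* larynxes.

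None of the 8 T-box genes passed that threshold, against 0.725% of all tested genes (0.56% higher and 0.165% lower). At an unadjusted limma p under 0.05, *Tbx2*, *Tbx3* and *Tbx15* were higher and *Tbx5* was lower in the *Shh-/-* pools. These are 4 of 8 members, beside 24.8% of the tested genes (17.5% higher and 7.22% lower). Both *Shh-/-* pools lay above both WT pools for 4 members (*Tbx1*, *Tbx2*, *Tbx3* and *Tbx15*) and below them for *Tbx5*. Such a separation was common, at 60.7% of the tested genes, with 38% above and 22.7% below. The 8 log2 differences had a median of 0.41, and the median over all tested genes was 0.08. Because the tissue was sequenced in bulk, fewer cells expressing a gene and less of its RNA per cell cannot be told apart for any value below. All differences are *Shh-/-* minus WT on the scale of log2(TPM + 1), which understates the change of genes near or below 1 TPM.

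**Figure D1:**
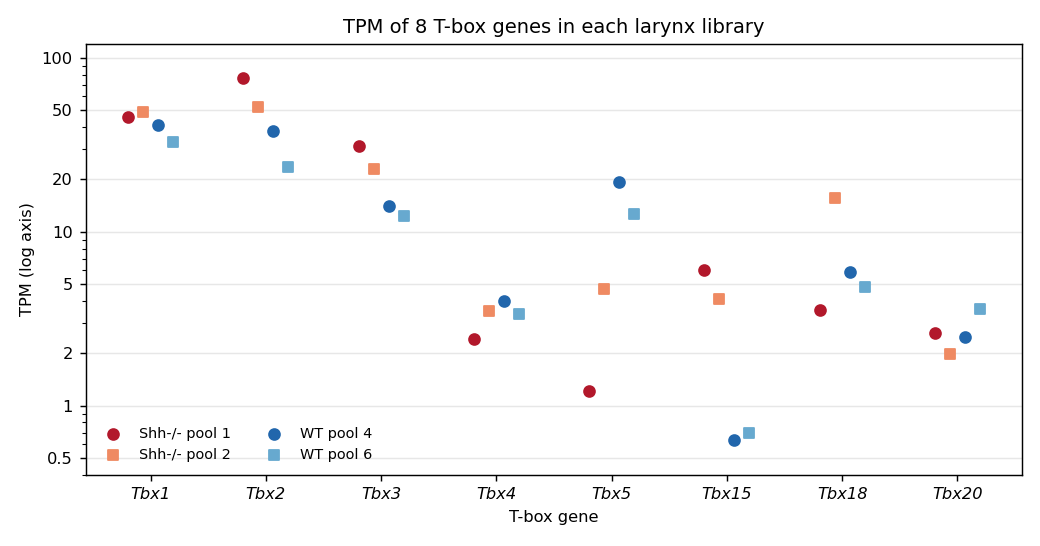
TPM of the 8 T-box genes in each library, on a log axis, with *Shh-/-* pools 1 and 2 and WT pools 4 and 6 as separate points. The *Shh-/-* points lie above the WT points for *Tbx1*, *Tbx2*, *Tbx3* and *Tbx15* and below them for *Tbx5*, and they are mixed for *Tbx4*, *Tbx18* and *Tbx20*.

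TPM is corrected for transcript length, so the levels of different members can be ordered in this unit. The listed coverage can give another order, because its ratio to FPKM differs between members. By coverage *Tbx15* was the lowest member in both *Shh-/-* pools, at 0.242 and 0.393 reads per base. The order below is that of TPM. In the *Shh-/-* pools *Tbx2* had the highest level, followed by *Tbx1* and *Tbx3*, and the ranges of these 3 genes over the pools did not overlap. The remaining 5 (*Tbx18*, *Tbx15*, *Tbx5*, *Tbx4* and *Tbx20*, by falling mean) overlapped from neighbour to neighbour. In the WT pools *Tbx1* and *Tbx2* led with overlapping ranges. *Tbx5* and *Tbx3* came next and also overlapped, *Tbx18* stood apart below them, *Tbx4* and *Tbx20* overlapped, and *Tbx15* was lowest. *Tbx5* was thus among the 4 most abundant members in WT, while in *Shh-/-* larynxes its range overlapped those of *Tbx18*, *Tbx15*, *Tbx4* and *Tbx20*. The summed level of the 8 genes was 169.4 and 153.9 TPM in *Shh-/-* and 125.6 and 93.6 TPM in WT, and *Tbx1*, *Tbx2* and *Tbx3* supplied most of it in every library.

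*Tbx5*, an activator required for lung bud formation, was the only member with both *Shh-/-* pools below both WT pools. It was listed at 1.22 and 4.71 TPM in *Shh-/-* pools 1 and 2 and at 19.4 and 12.6 TPM in WT pools 4 and 6. The mutant pools did not overlap the WT pools, and pool 1 was well below pool 2. The log2 difference was -2.23 (SE 0.50, 95% interval -3.51 to -0.95, limma adjusted p = 0.106), which ranks 122 by absolute size among the 16972 tested genes. It was the widest of the 8 members on this scale, but *Tbx15* was wider with a pseudocount of 0.1 (2.74 against -2.65) and without *Shh-/-* pool 1 (1.62 against -1.55). The gap between the *Shh-/-* pools alone was 1.36 on the log2 scale, and 1.54% of the tested genes had a larger one. With a pool left out in turn, the difference ran from -1.55 without *Shh-/-* pool 1 to -2.91 without *Shh-/-* pool 2. The gene lies at chr5:119832668-119885219 on the plus strand of mm10. Its listed coverage per unit of FPKM was 0.382 of that of single-transcript genes in *Shh-/-* pool 1 and 0.649 to 0.668 in the other 3 libraries, and whether this bears on its level there was not tested.

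A noncoding gene next to *Tbx5* had a like pattern. *Gm43050*, a long intergenic noncoding RNA on the minus strand, starts 748 bases before the listed start of *Tbx5* and runs away from it. It was listed at 0 and 1.10 TPM in *Shh-/-* and at 9.12 and 9.55 TPM in WT. The mutant pools were far below the WT pools, again with pool 1 the lowest (log2 difference -2.83, SE 0.39, limma adjusted p = 0.0615). The next expressed gene on the other side, *Rbm19*, 231246 bases away and coding for an RNA-binding protein, was at 28.3 and 27.2 against 31.1 and 30.7 TPM (-0.15, SE 0.11, adjusted p = 0.434). The sequence below is shown because it lies between the 2 listed genes. It is a window of 300 bases that RefSeq places around a start of the noncoding gene *Gm5563* (GRCm38.p6, chr5:119831937-119832236, minus strand). The window begins 17 bases past the listed span of *Gm43050* and ends 432 bases before the listed start of *Tbx5*. Capitals mark its 12 CpG dinucleotides, a number that 39.591% of 32851 RefSeq windows of this length reach or exceed.
Gm5563 window: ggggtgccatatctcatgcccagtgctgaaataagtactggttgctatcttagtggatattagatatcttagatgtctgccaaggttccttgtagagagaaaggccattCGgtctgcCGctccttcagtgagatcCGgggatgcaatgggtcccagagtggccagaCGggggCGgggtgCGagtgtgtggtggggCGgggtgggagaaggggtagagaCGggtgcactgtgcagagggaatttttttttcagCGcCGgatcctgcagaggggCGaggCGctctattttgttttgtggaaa

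*Tbx4*, the close relative of *Tbx5* in lung and hindlimb mesenchyme, was a low-level gene in every library. Its levels were 2.41 and 3.50 TPM in *Shh-/-* and 4.0 and 3.38 TPM in WT, and the genotypes overlapped. The log2 difference was -0.26 (SE 0.23, 95% interval -0.85 to 0.34, limma adjusted p = 0.506), so a decrease of up to 0.85 lies within the interval. It was -0.54 when every library was adjusted for the GC content and length of its transcripts. The ratio of *Tbx5* to *Tbx4* was 0.506 and 1.34 in *Shh-/-* and 4.85 and 3.74 in WT. *Tbx5* was therefore the more abundant of the pair in both WT pools and in *Shh-/-* pool 2, and the less abundant in *Shh-/-* pool 1. *Tbx4* lies at chr11:85886422-85916097 on the plus strand, 44474 bases after the end of *Tbx2*.

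*Tbx2*, a repressor of cell cycle inhibitor genes and of muscle differentiation genes in the heart, was the most abundant member in *Shh-/-* larynxes. It measured 76.8 and 52.1 TPM in *Shh-/-* and 38.0 and 23.5 TPM in WT. The genotypes did not overlap, although the pools of each genotype also differed from one another. With limma the difference was 1.06 on the log2 scale (SE 0.30, 95% interval 0.30 to 1.82, adjusted p = 0.137). With the same adjustment for GC content and length it was 0.53. The transcripts of *Tbx2* have a GC content of 63.2%. *Tbx2* lies at chr11:85832551-85841948 on the plus strand, and its ratio to its neighbour *Tbx4* was 31.9 and 14.9 in *Shh-/-* and 9.50 and 6.95 in WT. The mutant ratios were both above the WT ratios. The noncoding gene *2610027K06Rik* starts 328 bases before *Tbx2* on the opposite strand and runs away from it. It measured 3.06 and 1.92 against 2.33 and 2.55 TPM (0.00, SE 0.24, limma adjusted p = 0.996), with overlapping genotypes.

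*Tbx3*, the closest relative of *Tbx2* and also a repressor, is needed for limb, mammary gland and cardiac conduction system development. Its values were 31.3 and 22.8 TPM in *Shh-/-* and 14.0 and 12.3 TPM in WT. Both mutant pools were above both WT pools, by more than either genotype's pools differed. The log2 difference was 0.97 (SE 0.19, 95% interval 0.47 to 1.47, limma adjusted p = 0.0957), the second smallest adjusted p of the 8 members. It was 0.75 to 1.19 with any pool left out and 0.67 with the adjustment for GC and length. The ratio of *Tbx2* to *Tbx3* was 2.46 and 2.28 in *Shh-/-* and 2.71 and 1.90 in WT, with overlapping genotypes. The ratio of *Tbx5* to *Tbx3*, which lie on the same chromosome, was 0.0390 and 0.206 in *Shh-/-* and 1.38 and 1.03 in WT. In WT larynxes *Tbx5* was at or slightly above the level of *Tbx3*, and in *Shh-/-* larynxes *Tbx3* exceeded *Tbx5* in both pools.

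*Tbx3* (chr5:119670669-119684724, plus strand) overlaps the antisense gene *Tbx3os1* by 697 bases at its start. *Tbx3os1* was at 7.34 and 6.66 TPM in *Shh-/-* and at 3.92 and 1.88 TPM in WT, without overlap (log2 difference 1.09, SE 0.30, limma adjusted p = 0.136). The library kit keeps strand, but the strand setting used in alignment and assembly is not given in the sources used here, so in the shared stretch reads of *Tbx3* and *Tbx3os1* cannot be told apart. The RefSeq window around the start of *Tbx3os1* (GRCm38.p6, chr5:119671459-119671758, minus strand) lies within *Tbx3*, 790 bases after its listed start. It is shown because both genes are transcribed from this end, with its 14 CpG dinucleotides in capitals, a number that 36.285% of the windows reach or exceed.
Tbx3os1 window: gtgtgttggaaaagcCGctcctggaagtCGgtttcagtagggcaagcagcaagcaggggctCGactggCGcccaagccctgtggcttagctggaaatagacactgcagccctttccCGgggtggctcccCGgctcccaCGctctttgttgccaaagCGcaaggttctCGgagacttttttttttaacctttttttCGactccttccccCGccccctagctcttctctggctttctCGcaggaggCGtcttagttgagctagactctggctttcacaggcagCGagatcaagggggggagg

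Neither this window nor the one beside *Tbx5* holds the GLI binding motif TGGGTGGTC, the T-box binding motif AGGTGTGA or the shortened GGTGTG on either strand. The last is contained in the T-box motif, and the 3 occur in 0.253%, 1.275% and 19.047% of all 32851 RefSeq windows. The windows of *Tbx1*, *Tbx4*, *Tbx18* and *Tbx20*, the 4 members that have one in the table used, hold none of them either. These letters were searched in 300 bases per start only.

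**Figure D2:**
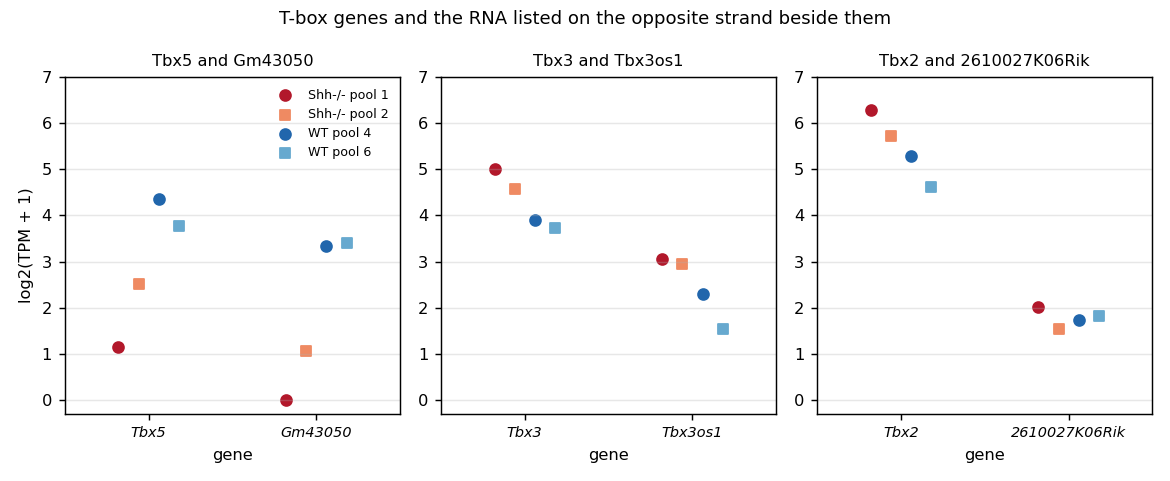
Log2(TPM + 1) per library of *Tbx5*, *Tbx3* and *Tbx2*, each beside the noncoding gene on the opposite strand at its start, with *Shh-/-* pools 1 and 2 and WT pools 4 and 6 as separate points. *Gm43050* is lower in both *Shh-/-* pools together with *Tbx5*, *Tbx3os1* is higher in both together with *Tbx3*, and *2610027K06Rik* overlaps between genotypes beside *Tbx2*.

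*Tbx1*, required for segmentation of the pharyngeal apparatus, was high in every library. It measured 45.5 and 48.9 TPM in *Shh-/-* and 41.2 and 32.6 TPM in WT. The mutant pools lay above the WT pools, but the gap between the nearest pools of the genotypes was smaller than the gap between the WT pools. The log2 difference was 0.35 (SE 0.15, 95% interval -0.04 to 0.74, limma adjusted p = 0.229), and with the adjustment for GC and length its sign turned to -0.14 (adjusted p = 0.517). *Tbx1* transcripts have a GC content of 65.0%. The gene lies at chr16:18581713-18586969 on the minus strand, between *Gnb1l* (0.54, SE 0.29, adjusted p = 0.311) and *Gp1bb* (0.92, SE 0.27, adjusted p = 0.146).

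*Tbx15*, which acts in skeletal and dermal mesenchyme, was the member with the smallest adjusted p. It was listed at 6.03 and 4.13 TPM in *Shh-/-* and at 0.633 and 0.697 TPM in WT. Both mutant pools were several times above WT, where the gene was below 1 TPM and the pools were close together. The log2 difference was 1.85 (SE 0.24, 95% interval 1.22 to 2.48, limma adjusted p = 0.0595), rank 207 by absolute size. It was 1.62 to 2.08 with any pool left out, 2.74 with a pseudocount of 0.1, 1.37 with FPKM and 0.33 with coverage in place of TPM, a unit in which all 4 values are below the pseudocount of 1. When the 13133 protein-coding genes alone were tested, a choice made after the data were seen, *Tbx15* passed the threshold at an adjusted p of 0.0481. The listed coverage was 0.242 and 0.393 reads per base in *Shh-/-* and 0.0550 and 0.0632 in WT. Coverage per unit of FPKM was 0.0611 of that of single-transcript genes in all 4 libraries, the lowest of the 8 members. The listed coverage therefore does not give the number of reads behind these TPM values, which is not known. *Wars2*, a mitochondrial tRNA synthetase gene 1195 bases before *Tbx15* (chr3:99240381-99354259, plus strand), differed by -0.03 (SE 0.15, adjusted p = 0.914).

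*Tbx18*, the closest relative of *Tbx15* and a gene of the epicardium, sinus node and ureter mesenchyme, was at 3.54 and 15.7 TPM in *Shh-/-* pools 1 and 2 and at 5.88 and 4.79 TPM in WT. The mutant pools lay on either side of the WT pools. The log2 difference of 0.46 (SE 0.62, 95% interval -1.14 to 2.07, limma adjusted p = 0.659) rests on pool 2: without it the difference was -0.48, and without pool 1 it was 1.40. The gap between the mutant pools was 1.88 on the log2 scale, and 0.642% of the tested genes had a larger one. The ratio of *Tbx18* to *Tbx15* in TPM was 0.586 and 3.80 in *Shh-/-* and 9.29 and 6.88 in WT, with both mutant values below WT. Which gene is the more abundant depends on the unit. In listed coverage *Tbx18* was above *Tbx15* in both *Shh-/-* pools, at 2.31 against 0.242 and 24.2 against 0.393 reads per base. *Tbx18* lies at chr9:87702800-87731260 on the minus strand.

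*Tbx20*, a cardiac factor that is also expressed in hindbrain motor neurons, had the lowest mean TPM of the 8 in *Shh-/-* larynxes. It measured 2.62 and 1.97 TPM in *Shh-/-* and 2.48 and 3.60 TPM in WT (chr9:24720812-24774303, minus strand). The genotypes overlapped, and the log2 difference was -0.29 (SE 0.25, 95% interval -0.92 to 0.35, limma adjusted p = 0.489).

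The remaining neighbours of the members had no difference past the threshold with limma. *Med13l* (0.31), *Brip1* (-0.56), *M6pr-ps* (0.02), *Gm9540* (-0.38), *Snx14* (-0.16), *Dpy19l1* (0.00) and *Gm10180* (-0.14), the nearest expressed genes of *Tbx3*, *Tbx4*, *Tbx15*, *Tbx18* and *Tbx20*, had adjusted p-values of 0.15 to 0.983. Genes on the opposite strand that overlap *Tbx15* and *Tbx18* were below 1 TPM. *Gm43120*, within the span of *Tbx15*, was listed at 0.342 and 0.930 TPM in *Shh-/-* and at 0.218 and 0 TPM in WT, and *D030062O11Rik*, which overlaps *Tbx18*, at 0.676 and 0.666 against 0.488 and 0.535 TPM.

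**Figure D3:**
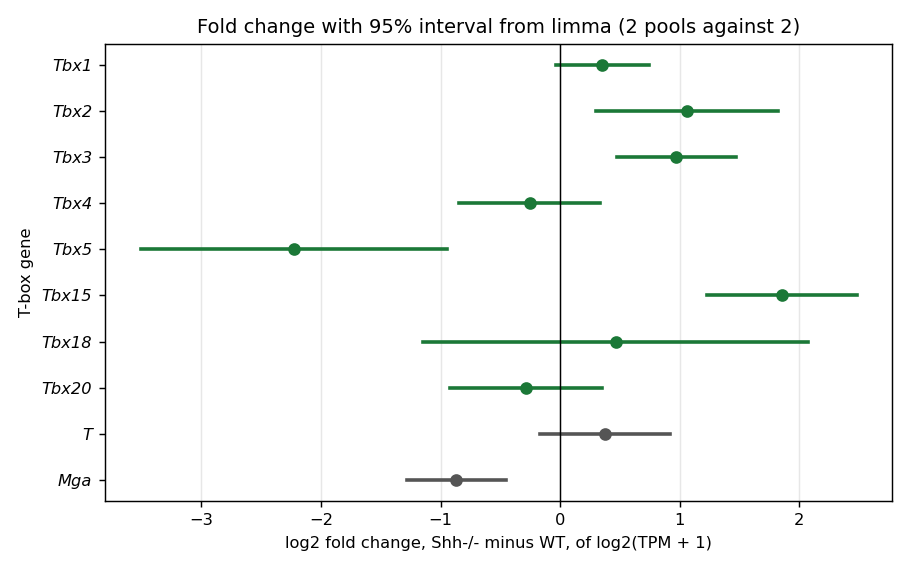
Log2 difference (*Shh-/-* minus WT, of log2(TPM + 1)) of the 8 members and, in grey, of *T* and *Mga*, with 95% intervals from limma as bars. The intervals of *Tbx2*, *Tbx3*, *Tbx5*, *Tbx15* and *Mga* leave out 0 before any adjustment, and those of *Tbx1*, *Tbx4*, *Tbx18*, *Tbx20* and *T* include it.

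**Figure D4:**
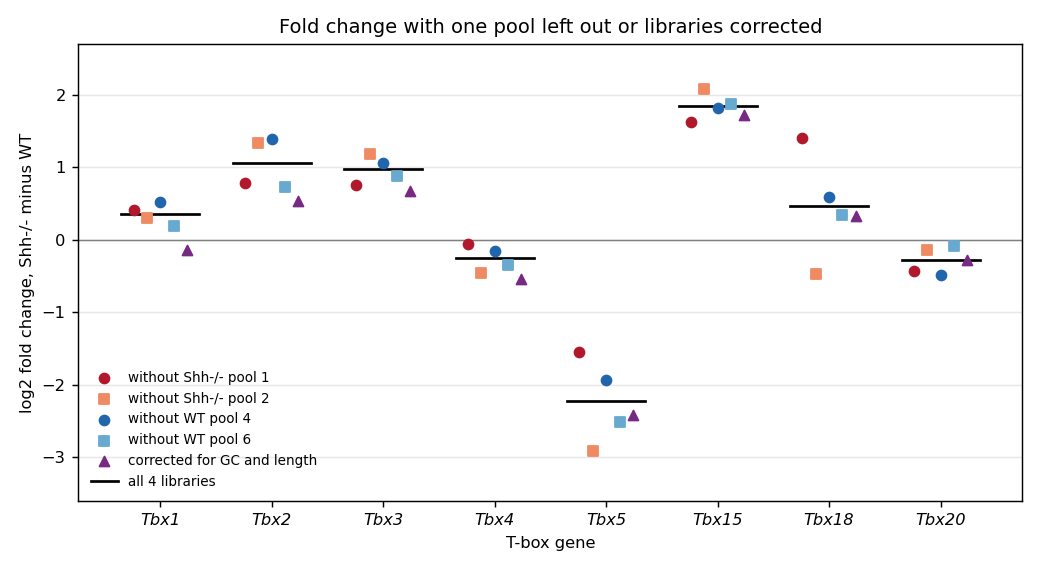
Log2 difference of each member in all 4 libraries (black line), with each pool left out in turn (circles and squares) and with the adjustment for GC and length (triangles). *Tbx18* changes sign without *Shh-/-* pool 2 (-0.48) and *Tbx1* with the adjustment (-0.14), while *Tbx5* stays at -1.55 or lower and *Tbx15* at 1.62 or higher in the fits with a pool left out.

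Of the other T-box genes, *Mga* and *T* reached 1 TPM. *Mga*, which encodes a MAX partner with both a T-box and a helix-loop-helix domain, was at 34.7 and 29.1 TPM in *Shh-/-* and at 53.0 and 65.3 TPM in WT. Both mutant pools were below both WT pools (log2 difference -0.87, SE 0.16, limma adjusted p = 0.0887). *T* (brachyury), the gene of the notochord and early mesoderm, measured 2.64 and 2.21 against 1.51 and 1.77 TPM (0.38, SE 0.21, adjusted p = 0.320). *Tbx6* stayed under 1 TPM, at 0.971 and 0.801 against 0.458 and 0.574 TPM. *Tbx21*, *Tbx22*, *Tbr1* and *Eomes* were under 0.2 TPM in every library, and *Tbx10* and *Tbx19* are listed at 0 throughout.

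Genes that act with or downstream of the members were read from lists drawn up from general knowledge. Their counts stand beside 0.56% of all tested genes that rose and 0.165% that fell, and, at an unadjusted p under 0.05, beside 17.5% higher and 7.22% lower. Of 11 tested T-box co-repressor genes (the TLE family, *Ripply3*, the NCOR and HDAC genes), none passed the threshold with limma and 3 were higher at an unadjusted p under 0.05 (17.5% of all tested genes were), with a median difference of 0.29. The widest was that of *Tle2*, a Groucho-type co-repressor, at 17.9 and 14.9 against 3.96 and 5.83 TPM (1.57, SE 0.22, adjusted p = 0.0633). *Ripply1* and *Ripply2*, which bind T-box factors directly, are listed at 0 in every library. Of 10 tested genes linked to *Tbx2* and *Tbx3*, again none passed, 5 had an unadjusted p under 0.05 with higher values in *Shh-/-* and 2 with lower values (17.5% and 7.22% of all tested genes), and the median was 0.38. *Cdkn2b*, a cell cycle inhibitor, was at 5.53 and 3.97 against 2.07 and 2.43 TPM (0.81, adjusted p = 0.137), *Bmp2* differed by -0.77 (adjusted p = 0.149), the cyclin gene *Ccnd2* by -0.71 (adjusted p = 0.0595) and the WNT inhibitor gene *Frzb* by 0.68 (adjusted p = 0.104).

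Among 17 tested foregut mesenchyme genes linked to *Tbx4* and *Tbx5*, 1 rose and 1 fell, 4 were higher and 4 lower at the unadjusted limit, and the median was -0.29. The gene that fell was *Foxf2*, a forkhead factor of foregut mesenchyme, from 20.3 and 20.0 TPM in WT to 0.241 and 1.24 TPM in *Shh-/-* (log2 difference -3.67, SE 0.32, limma adjusted p = 0.0383). The gene that rose was *Gas1*, an HH co-receptor gene, from 45.5 and 33.1 to 158 and 136 TPM (1.89, SE 0.18, adjusted p = 0.0422). *Foxf1*, the relative of *Foxf2*, was at 0.848 and 9.57 against 72.3 and 64.6 TPM (-3.97, SE 0.81, adjusted p = 0.0976), and *Aldh1a2*, the main enzyme of embryonic retinoic acid synthesis, at 8.52 and 52.6 against 99.2 and 80.7 TPM (-2.0, SE 0.81, adjusted p = 0.211). Both were lower in *Shh-/-* pool 1 than in pool 2, as was *Tbx5*. A list of 17 tested HH pathway genes also holds *Foxf1*, *Foxf2*, *Gas1* and *Shh* itself. In this list 1 rose (*Gas1*) and 4 fell, namely *Foxf2*, *Hhip* (-3.36), *Foxl1* (-2.39) and *Ptch1*. At the unadjusted limit 8 were higher and 9 lower, beside 17.5% and 7.22% of all tested genes. The median of -1.49 is the value of *Shh*, so it does not sum up a list that went both ways.

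Of 27 tested pharyngeal genes linked to *Tbx1*, 3 rose and none fell, 11 were higher and 4 lower at the unadjusted limit, and the median was 0.52. *Cyp26a1*, which degrades retinoic acid, rose from 2.50 and 2.35 TPM in WT to 37.0 and 24.2 TPM (log2 difference 3.17, SE 0.24, limma adjusted p = 0.0323). *Cyp26c1*, a gene of the same enzyme family, was at 0 and 0.116 TPM in WT and at 8.15 and 4.83 TPM in *Shh-/-* (2.79, SE 0.29, adjusted p = 0.0459). *Pax1*, a pharyngeal pouch gene, had the widest difference of the list at 30.1 and 9.67 against 1.08 and 0.400 TPM (3.41, SE 0.55, adjusted p = 0.0736).

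Of 14 tested mesenchyme genes linked to *Tbx15* and *Tbx18*, 4 rose and none fell, 10 were higher and 1 lower at the unadjusted limit, and the median was 0.90. Among them were the homeobox gene *Alx4* (3.25, SE 0.29, limma adjusted p = 0.0412), the neural crest and muscle progenitor gene *Pax3* (2.06, SE 0.23, adjusted p = 0.047) and the mesenchymal factor gene *Twist1* (1.57, SE 0.12, adjusted p = 0.0323). *Alx4* was at 16.7 and 10.8 TPM in *Shh-/-* and at 0.766 and 0.312 TPM in WT, so that both WT pools were below 1 TPM as for *Tbx15*. Of 18 tested cardiac genes linked to *Tbx5* and *Tbx20*, 2 rose and none fell, and at an unadjusted p under 0.05 there were 8 higher and 4 lower. Those that rose were the myosin heavy chain genes *Myh7* (2.13, SE 0.21, adjusted p = 0.0422) and *Myh6* (1.76, SE 0.18, adjusted p = 0.0448), and the median of the list was 0.55. The widest of the lower values, named after they were seen, were those of the cardiac factor genes *Nkx2-5*, at 5.97 and 4.73 against 18.5 and 13.6 TPM (-1.42, SE 0.22, limma adjusted p = 0.0697), and *Hand1*, at 6.67 and 5.42 against 18.1 and 15.8 TPM (-1.35, SE 0.17, adjusted p = 0.0595). *Myl7*, an atrial myosin light chain gene, was at 18.7 and 55.1 against 8.00 and 7.46 TPM (1.93, adjusted p = 0.126), and the genes *Tnnt2* (1.93, adjusted p = 0.0895) and *Myl4* (1.87, adjusted p = 0.0962) were also lower in pool 1 than in pool 2. *Nppa*, an atrial peptide gene of the list, is listed at 0 in every library.

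For each member, the 3 tested genes with the most similar profile were found by Euclidean distance over the 4 libraries after each gene was centred on its mean log2(TPM + 1). Because they were picked by this distance, their likeness to the member over the pools follows from the choice. Nearest to *Tbx5* were *Cpn1* (distance 0.21), *Pnliprp1* (0.42) and *Gli1* (0.43). *Cpn1*, a carboxypeptidase subunit gene, was listed at 0.279 and 2.64 against 9.79 and 6.35 TPM. *Gli1*, the HH target and transcription factor, was at 3.20 and 8.45 TPM in *Shh-/-* and at 41.7 and 32.9 TPM in WT (log2 difference -2.59, SE 0.41, limma adjusted p = 0.0715). It shared with *Tbx5* the lower value in *Shh-/-* pool 1 and the higher one in WT pool 4. Nearest to *Tbx15* were *Car3* (0.087), *Gm12473* (0.11) and *SCARNA4* (0.15), of which *Car3*, a carbonic anhydrase gene, rose (1.87, SE 0.21, adjusted p = 0.0493). Nearest to *Tbx18* were *mmu-mir-7073* (0.34), *Hoxb2* (0.36) and *Gm28062* (0.37), and all 3 stood out in *Shh-/-* pool 2. *Hoxb2*, a homeobox gene of the hindbrain and pharyngeal arches, measured 15.2 and 41.0 TPM in *Shh-/-* pools 1 and 2 and 19.1 and 16.9 TPM in WT.

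For the other 5 members the distances of the nearest genes were 0.022 to 0.12. Among the nearest to *Tbx1* were *Kctd3* and *Gm10762* (distances 0.029 and 0.031). The nearest were *Kynu*, *Mtcl1* and *Cerkl* for *Tbx2* (0.059 to 0.12) and *Adcy2*, *Sdc3* and *Sema7a* for *Tbx3* (0.027 to 0.057). For *Tbx4* they were *Gm7507*, *Hipk1* and *Mrps11* (0.022 to 0.051), and for *Tbx20* *Fyttd1*, *Pabpc4l* and *Crbn* (0.038 to 0.045). *Tbx3* and *Sdc3*, a heparan sulfate proteoglycan gene at 60.4 and 45.6 against 28.4 and 24.9 TPM, differed by 0.97 and 0.95. No member was among the nearest 3 of another.

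**Figure D5:**
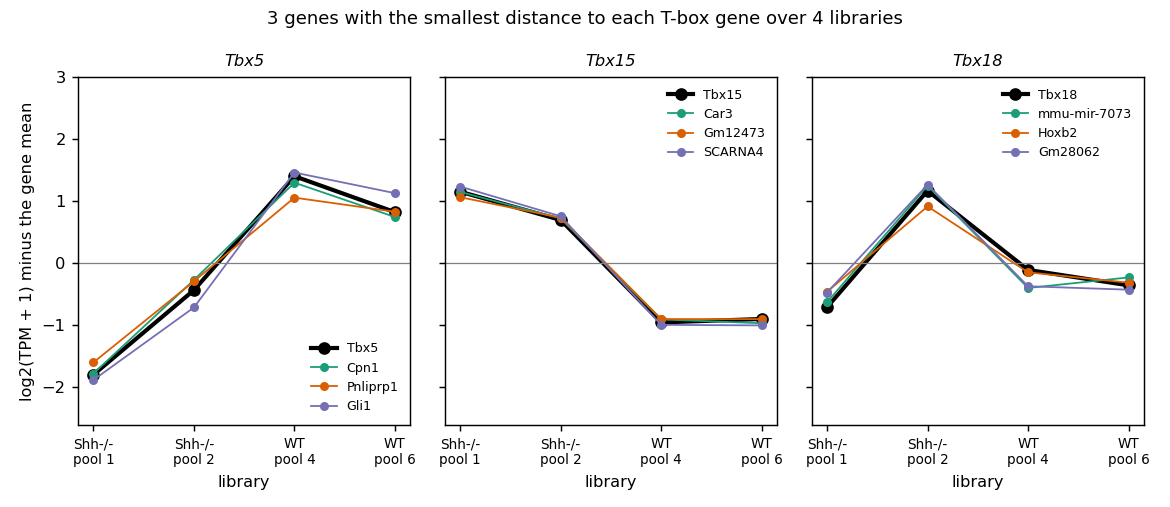
Profiles of *Tbx5*, *Tbx15* and *Tbx18* (thick lines) and of the 3 tested genes nearest to each, as log2(TPM + 1) minus the gene's own mean, over the 4 libraries. The genes around *Tbx5* are low in both *Shh-/-* pools and lowest in pool 1, those around *Tbx15* are high in both, and those around *Tbx18* are high in *Shh-/-* pool 2 only.

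Markers of other cells in the dissected tissue also differed between the libraries. The summed TPM of 12 tested neuron markers was 818 and 896 in *Shh-/-* and 291 and 258 in WT. Of the 12, 5 rose, beside 0.56% of all tested genes. At an unadjusted limma p under 0.05, 9 neuron markers were higher and 2 lower, beside 17.5% and 7.22% of all tested genes. For striated and cardiac muscle the sum was 205 and 315 against 98.1 and 104 TPM (2 of 12 rose, with 8 higher and 1 lower at the unadjusted limit). For neural crest it was 728 and 613 against 416 and 357 TPM (2 of 12 rose, with 8 higher and none lower at that limit). Endothelial markers summed to 370 and 430 against 251 and 236 TPM (1 of 9 rose, with 7 higher and none lower at that limit). Foregut epithelial markers, at 812 and 696 against 748 and 779 TPM, and epicardial and mesothelial markers, at 117 and 153 against 158 and 172 TPM, had no gene past the limma threshold, with 1 higher and 4 lower of 13 and 1 higher and 1 lower of 7 at an unadjusted p under 0.05. The epicardial and mesothelial list was mixed, with 4 of 7 genes higher, 3 lower and a median difference of 0.38. The largest part of each of its sums was *Tcf21*, at 37.7 and 70.2 against 90.3 and 88.4 TPM. *Tcf21* is also on the lists linked to *Tbx1* and to *Tbx15* and *Tbx18*. Erythroid markers summed to 11821 and 17926 against 16205 and 18353 TPM, and none of 10 passed either limit. The foregut epithelial list was mixed, with 7 of 13 genes higher, 6 lower and a median difference of 0.002. *Krt8* (0.44) and *Epcam* (0.33) were among those higher. The widest differences of the list were lower values, those of *Foxa2*, a factor of the foregut epithelium, and *Nkx2-1*, a factor of its ventral part. Both genes were present in every library. *Foxa2* was at 5.34 and 9.12 against 29.2 and 39.8 TPM (-2.13, SE 0.29, limma adjusted p = 0.0602). *Nkx2-1* was at 6.16 and 3.61 against 15.9 and 17.9 TPM (-1.64, SE 0.25, limma adjusted p = 0.0715). No marker of these 7 lists was at 0 in every library. The part of these cell types in the differences of *Tbx2*, *Tbx3*, *Tbx5*, *Tbx15*, *Tbx18* and *Tbx20* was not tested.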

How the data were processed

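RNA-seq of E10.5 larynx tissue was analysed for 2 *Shh-/-* and 2 WT pools. Per the labels and the study's methods, poly(A) RNA (RIN 7.7 to 9.0) was made into directional single-end libraries, aligned to mm10 with HISAT2 2.1.0 and assembled with StringTie 1.3.6. The deposited tables hold, for each gene, a coverage signal that the authors did not normalise between libraries. They also hold FPKM values, scaled by the aligned bases of a library, and TPM values, which the authors scaled to a fixed sum per library. In each library coverage kept a nearly fixed ratio to FPKM over single-transcript genes. For genes with several transcripts the ratio could be lower, as for *Tbx15* (0.0611 of the usual one). No read counts were used, so intervals for counting error are not given and precision rests on 2 pools per genotype.

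Rows of each gene ID were summed. Genes averaging 1 TPM or more were tested with limma 3.58.1 in R 4.3.3 (lmFit, eBayes with trend) on log2(TPM + 1), without covariates, with Benjamini-Hochberg adjustment over all tested genes and a threshold of 0.05. Exact permutation of 2 against 2 pools cannot go below p = 0.33. The script was tested on simulated data. The 8 members and all gene lists were chosen with earlier results of these data known. Named genes are the members, the other T-box genes, the widest 4 differences and all genes past the threshold of each linked list, the 3 nearest profiles, the nearest expressed or overlapping genes, and *Shh* and *Ptch1*. Some genes that this rule names are not reported here. Alternatives were another pseudocount (0.1), no filter or a mean TPM of at least 5, FPKM, quantile normalization, median centring, eBayes without trend, a correction for GC content and transcript length (splines with 5 degrees of freedom, GENCODE M21), an adjusted p of 0.10 and each pool left out, and, chosen after the data were seen, coverage in place of TPM and protein-coding genes only. Gene coordinates are those of the tables.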

Additional observations from a re-analysis of the deposited data

How the results depend on the processing

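The number of genes past the threshold, 123 (95 higher, 28 lower), was 69 (53 and 16) with a pseudocount of 0.1 and 0 of 28524 genes without the filter on TPM, where 5011 had an unadjusted limma p under 0.05. It was 82 with a mean TPM of at least 5 (63 higher), 858 (670 and 188) at an adjusted p of 0.10, 24 (14 and 10) with coverage in place of TPM, and 189 (159 higher) among protein-coding genes, the last 2 chosen after the data were seen. With each pool left out in turn it ran from 0 to 16 (0 to 4 higher, 0 to 12 lower), and was 0 without *Shh-/-* pool 1, *Shh-/-* pool 2 or WT pool 4, with 2800, 3761 and 3551 genes at an unadjusted p under 0.05. It was 117 to 127 with FPKM, quantile normalization, median centring or no trend and 101 after the GC and length correction. Of the members, 2 passed an adjusted p of 0.10 (*Tbx3* and *Tbx15*) and 1 passed among protein-coding genes (*Tbx15*, with the same difference of 1.85 and an adjusted p of 0.0481). *Tbx1* turned to -0.14 after the GC and length correction and *Tbx18* to -0.48 without *Shh-/-* pool 2. With each pool left out in turn, the log2 differences ran from 0.19 to 0.52 (*Tbx1*), 0.72 to 1.39 (*Tbx2*), 0.75 to 1.19 (*Tbx3*), -0.46 to -0.06 (*Tbx4*), -2.91 to -1.55 (*Tbx5*), 1.62 to 2.08 (*Tbx15*), -0.48 to 1.40 (*Tbx18*) and -0.49 to -0.08 (*Tbx20*). In these fits the lone pool of a genotype is assumed to vary like the other genotype. The median over all tested genes moved from 0.08 to -0.05 with median centring, and every member kept its sign. No paired analysis was possible because the 2 genotypes share no replicate numbers. The tables give no read counts, so how many reads stand behind values near 1 TPM, such as those of *Tbx15* in WT, is not known.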
